A study of Arabidopsis thaliana with 9 samples.

Results

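Small heat shock proteins bind unfolding proteins and hold them until larger chaperones can refold them. Plants make distinct small heat shock proteins for the cytosol, the endoplasmic reticulum, the peroxisome, the mitochondrion and the plastid. Most of these genes are nearly silent in unstressed vegetative tissue, are strongly induced by heat, and also appear during seed maturation. Co-chaperones assist the large chaperones of the HSP70 and HSP90 families. The set described here holds 10 genes, of which 8 encode small heat shock proteins. The other two are Fes1A, whose protein binds cytosolic HSP70 and protects it in heated plants, and AT5G48570, also known as ROF2 or FKBP65, a heat-induced peptidyl-prolyl isomerase of the FKBP family. The 10 genes were chosen by their signals on the third wild type array, where most of them read far higher than elsewhere, and each is measured by 1 of the 22746 probe sets tested.

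The arrays measured RNA from whole Arabidopsis thaliana seedlings grown in the dark for 10 days with no further treatment. There were 3 lines with 3 arrays each. L17 is called a phyA' line in the labels, the line sps1 is given by that name alone, and the wild type is Col-0. By the labels every line is in the Col-0 background. They name no transgene or mutation of L17 or sps1 and do not tell whether the 3 arrays per line stem from different plantings, so the p-values reflect array-to-array spread alone, which may be technical. Values are linear signals per probe set as deposited, and signals are compared between arrays within a gene, never between genes.

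Wild type replicate 3 differed from its companions well beyond these 10 genes. Its log2 signals correlated at r = 0.954 with each of the other wild type arrays over the probe sets, which are not independent replicates, while those arrays correlated at 0.985 with each other. On it 3989 probe sets (17.5%) read at least 2-fold above the mean of wild type replicates 1 and 2. That comparison used the signals with nothing added, so dim probe sets count too. Below a signal of 16 were 16.5% of probe sets on wild type replicate 3, against 21.0% and 20.3% on replicates 1 and 2. The ratio of the 3' to the 5' control probe set for ubiquitin, a measure of RNA integrity, was 2.24 to 2.43 on the L17 arrays, 2.41 to 2.53 on the sps1 arrays, and 1.80, 1.80 and 1.96 on wild type replicates 1, 2 and 3. It moved with the lines, and its part in the differences below was not tested. Of the fixed markers of tissue, PORB, an enzyme of chlorophyll synthesis in etiolated cotyledons, read 1673 to 5188 on all 9 arrays, and EXPA7, a root hair expansin, read 2.3 to 58.6. PORB was higher in L17 and in sps1 than on wild type replicates 1 and 2, with log2 differences of 1.06 and 0.95 (limma adjusted p = 0.0233 and 0.0274), and EXPA7 did not pass. The call of PORB was lost in L17 without L17 replicate 1 or 3 or wild type replicate 2 (0.0595, 0.0629 and 0.151) and in sps1 without sps1 replicate 2 or 3 or wild type replicate 2 (0.075, 0.0788 and 0.175). The part of this marker in the differences from wild type was not tested. The listed markers of green leaf and of ungerminated seed were not measured by a probe set named here.

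Both cytosolic class I members were far higher on the third wild type array than on any other. AT2G29500 read 140.2, 115.2 and 86.5 in L17, 102.3, 168.1 and 154.4 in sps1, and 9139.9 on wild type replicate 3, against 176.4 and 160.1 on wild type replicates 1 and 2. AT1G53540 read 152.3, 106.3 and 163.3 in L17, 157.5, 308.5 and 325.0 in sps1, and 8198.8 on wild type replicate 3, against 146.9 and 128.0 on replicates 1 and 2. The third wild type array therefore lay 51.8-fold above the highest other array for AT2G29500 and 25.2-fold for AT1G53540. Class I genes resemble each other in sequence, and whether their probe sets pick up related transcripts was not tested.

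The members made for other compartments showed the same array on top, to differing degrees. AT1G52560, whose protein is predicted to enter the plastid, read 28.6, 22.6 and 3.3 in L17, 16.4, 45.4 and 34.1 in sps1, and 1772.3 on wild type replicate 3, against 5.3 and 5.6 on wild type replicates 1 and 2. It was the one member with signals under 16, and without detection calls these low readings cannot be told from background. AT5G51440, a mitochondrial small heat shock protein, read 90.3, 90.2 and 90.9 in L17, 157.9, 180.5 and 166.2 in sps1, and 3772.7 on wild type replicate 3, against 539.3 and 389.2 on replicates 1 and 2. Its lines did not overlap on any array. AT1G54050, of the nuclear class III, read 61.4, 75.5 and 108.2 in L17, 96.0, 145.1 and 179.8 in sps1, and 1591.8 on wild type replicate 3, against 106.9 and 83.7 on the others. AT5G37670, a peroxisomal member, read 212.8, 185.5 and 221.0 in L17, 217.8, 273.1 and 305.0 in sps1, and 1111.8 on wild type replicate 3, against 175.4 and 193.7. In both of these genes the L17 arrays overlapped the sps1 arrays.

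ATHSP22.0, which acts in the endoplasmic reticulum, and AT4G21870 were much less extreme on the third wild type array. ATHSP22.0 read 123.1, 94.0 and 74.7 in L17, 163.1, 267.0 and 214.7 in sps1, and 403.8 on wild type replicate 3, against 113.5 and 101.6 on wild type replicates 1 and 2. All 3 sps1 arrays lay above all L17 arrays and above both of those wild type arrays. AT4G21870 read 263.5, 274.2 and 181.2 in L17, 273.7, 493.7 and 566.7 in sps1, and 467.0 on wild type replicate 3, against 405.1 and 303.3. Here 2 sps1 arrays exceeded the third wild type array, so the array on which the set was listed was not the highest for AT4G21870.

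Both co-chaperones had a large gap between the third wild type array and the rest. Fes1A read 239.5, 210.4 and 199.7 in L17, 250.3, 273.6 and 295.8 in sps1, and 7682.2 on wild type replicate 3, against 245.9 and 174.9 on wild type replicates 1 and 2. AT5G48570 read 127.4, 111.0 and 148.7 in L17, 100.5, 90.8 and 102.5 in sps1, and 3113.7 on wild type replicate 3, against 145.0 and 99.9. AT5G48570 was the one member with every L17 array above every sps1 array.

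**Figure D1:**
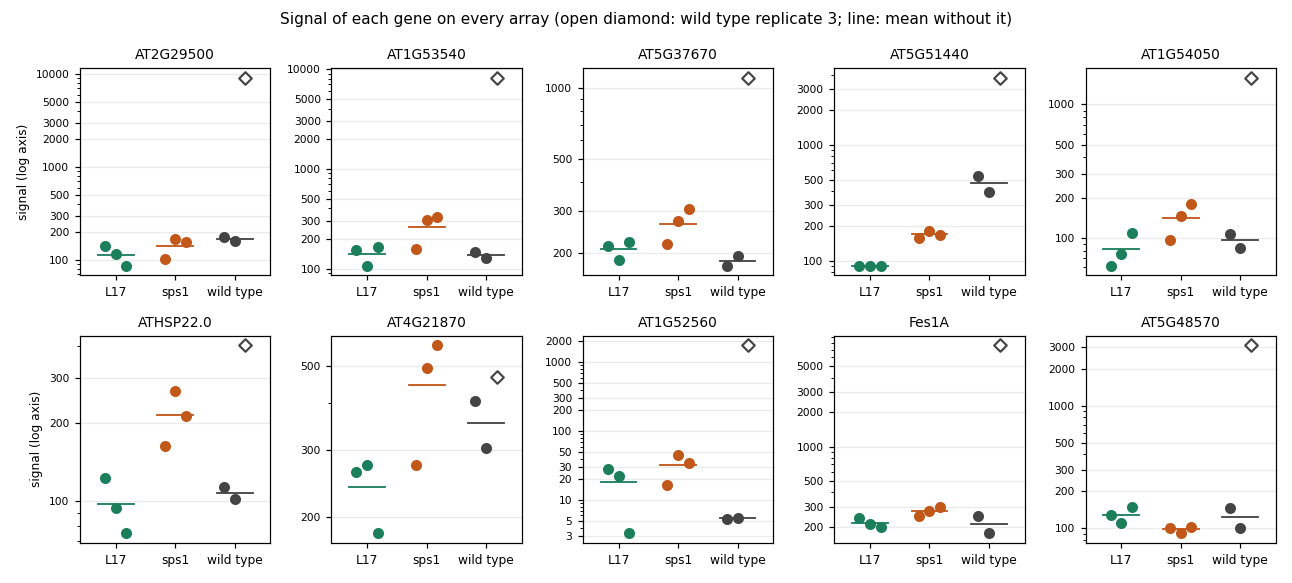
Signal of the 10 genes on every array, 1 panel per gene, with a log axis for the signal and the lines L17, sps1 and wild type side by side. Points are single arrays, the open diamond is wild type replicate 3, and the bar is the mean of the line without that array. The diamond lies on top in every panel except AT4G21870, and for AT5G51440 the lines separate with L17 lowest.

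Relative to the mean of wild type replicates 1 and 2, the third wild type array was higher by 59.6-fold for AT1G53540, 54.3-fold for AT2G29500, 36.5-fold for Fes1A, 25.4-fold for AT5G48570 and 16.7-fold for AT1G54050. The ratio was 8.13 for AT5G51440, 6.02 for AT5G37670, 3.75 for ATHSP22.0 and 1.32 for AT4G21870. AT1G52560 read 39.1-fold above the highest other array, and no ratio to wild type replicates 1 and 2 is given because their readings cannot be told from background. By the log2 difference from those arrays AT1G53540, AT2G29500 and Fes1A ranked 5, 7 and 13 of all probe sets. The array read at least 2-fold above the mean of wild type replicates 1 and 2 for 9 of the 10 genes (17.5% of all probe sets), above all 8 other arrays for 9 of the 10 (24%), and at least 2-fold above the highest of them for 8 of the 10 (4.97%). These comparisons chose the set and carry no test. The exceptions were ATHSP22.0 at 1.51-fold and AT4G21870 at 0.824 of the highest other array. The highest of the other arrays was an sps1 array for 7 of the 10 genes, and the share of all probe sets with that order was not taken.

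The lines were compared without the third wild type array. In L17 against sps1, 9 of the 10 genes had the lower level in L17, where 52.8% of all probe sets had the higher one, and 2 of them passed the test (an adjusted p under 0.05). ATHSP22.0 averaged 97.3 ± 24.4 in L17 and 215 ± 51.9 in sps1 (SD, n = 3 each), which is -1.02 ± 0.21 on the log2 scale (SE, limma adjusted p = 0.0215). AT5G51440 averaged 90.5 ± 0.382 in L17 and 168 ± 11.4 in sps1 (SD, n = 3 each), which is -0.79 ± 0.14 on the log2 scale (SE, limma adjusted p = 0.012). These were the genes of the endoplasmic reticulum and the mitochondrion. In whole seedlings, fewer cells that hold a transcript and less of it per cell cannot be told apart. Differences passed the test for 11.5% of all probe sets, 6.48% with L17 higher and 5.06% with L17 lower, and the count rests on 2 genes. With L17 higher were 56.1% of the called probe sets, or 43% after median centring, which lowered the median of all probe sets to -0.07 and did not change the direction of any of the 10 genes. The arrays did not overlap for ATHSP22.0, AT5G51440 and Fes1A, all lower in L17 (13.7% of all probe sets), or for AT5G48570, higher in L17 (17%).

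Among the members that missed the threshold, AT4G21870 averaged 240 ± 50.9 in L17 and 445 ± 153 in sps1, a log2 difference of -0.81 with a 95% interval of -1.47 to -0.14 and a limma adjusted p of 0.123. AT1G53540 averaged 141 ± 30.2 in L17 and 264 ± 92.3 in sps1, a log2 difference of -0.79 with an interval of -1.44 to -0.15 and a limma adjusted p of 0.118. AT1G54050 gave -0.67, with an interval of -1.25 to -0.09. In these genes the first sps1 array read close to the L17 arrays and the other sps1 arrays read above them. AT1G52560 (-0.53), AT5G37670 (-0.33), Fes1A (-0.32) and AT2G29500 (-0.27) had intervals that include 0. AT5G48570 was the one gene with a higher mean in L17, at 129 ± 18.9 against 97.9 ± 6.25 in sps1, a log2 difference of 0.34 with an interval of -0.03 to 0.72 (limma adjusted p = 0.239). The median difference of the 10 genes was -0.60, while the median of all probe sets was 0.02.

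**Figure D2:**
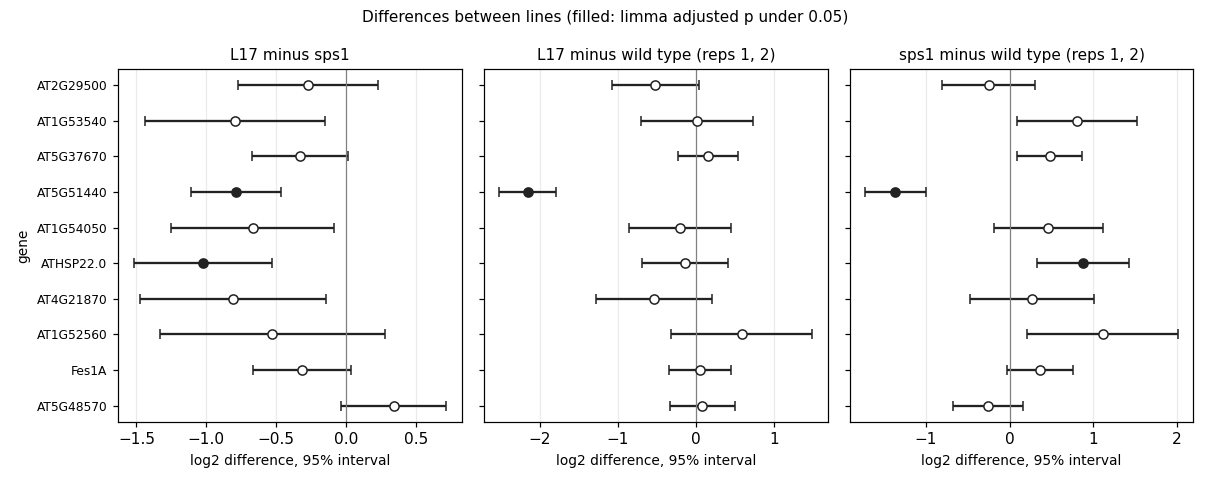
Log2 difference of each of the 10 genes in L17 minus sps1, L17 minus wild type replicates 1 and 2, and sps1 minus wild type replicates 1 and 2, with 95% intervals from the limma fit to 8 arrays. Filled points passed an adjusted p of 0.05: AT5G51440 in all 3 comparisons and ATHSP22.0 in the comparisons that include sps1.

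Against wild type replicates 1 and 2, the gene that fell in L17 was AT5G51440. It averaged 90.5 ± 0.382 in L17 (SD, n = 3) and 464 over the 2 wild type arrays, 4.45-fold lower after adding 16, or -2.16 ± 0.16 on the log2 scale (SE, limma adjusted p = 0.000274). Differences passed for 11.4% of all probe sets, 5.24% with L17 higher and 6.17% with L17 lower, and no other member passed. AT2G29500 averaged 114 in L17 and 168 in wild type, with no overlap of arrays, a log2 difference of -0.52 with a 95% interval of -1.08 to 0.03 (limma adjusted p = 0.226). AT4G21870 likewise had every L17 array below both wild type arrays, with a log2 difference of -0.54 and an interval of -1.29 to 0.20. With AT5G51440 these made 3 of 10 genes with L17 below wild type on every array, where 19.5% of all probe sets did so. Fes1A, AT5G48570 and AT1G53540 differed by 0.05, 0.08 and 0.01 on the log2 scale, with intervals of -0.34 to 0.45, -0.34 to 0.50 and -0.71 to 0.73. The 10 genes divided into 5 with a higher and 5 with a lower mean log2 signal in L17, with a median difference of -0.07, while 54.9% of all probe sets were higher.

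In sps1, AT5G51440 fell and ATHSP22.0 rose against wild type replicates 1 and 2. AT5G51440 averaged 168 ± 11.4 in sps1 (SD, n = 3) against 464 in wild type, which is -1.37 ± 0.16 on the log2 scale (SE, limma adjusted p = 0.00139). ATHSP22.0 averaged 215 ± 51.9 in sps1 (SD, n = 3) against 108 in wild type, which is 0.88 ± 0.24 on the log2 scale (SE, limma adjusted p = 0.0461). The call of ATHSP22.0 held in 9 of 18 alternative settings, with adjusted p between 0.00907 and 0.729, and was lost without L17 replicate 2, sps1 replicate 2 or 3, or wild type replicate 1 or 2 (adjusted p = 0.0737, 0.107, 0.105, 0.142 and 0.217). Over all probe sets 15% passed, 6.57% with sps1 higher and 8.4% with sps1 lower. With sps1 higher were 43.9% of the called probe sets, or 57.6% after median centring, which raised the median of all probe sets to 0.12.

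AT1G52560 did not pass in sps1, with signals that averaged 32.0 in sps1 and 5.44 in wild type. Its log2 difference was 1.11 with a 95% interval of 0.21 to 2.01 (limma adjusted p = 0.102), and it depends on the constant added to the dim wild type readings: 2.24 with 1 added and 0.46 with 64 added. It passed in 2 of 17 alternative settings, of which 1 left out L17 replicate 3 (adjusted p = 0.0364), with adjusted p up to 0.711 and a reversed sign (-1.01) when wild type replicate 3 entered the fit. Also short of the threshold, AT1G53540 gave 0.81, with an interval of 0.09 to 1.53, and AT5G37670 gave 0.48, with an interval of 0.09 to 0.86 (limma adjusted p = 0.134 and 0.1). In these 3 genes, in ATHSP22.0 and in Fes1A every sps1 array lay above both wild type arrays, which held for 22.9% of all probe sets, and 22.9% lay below as AT5G51440 did. AT1G54050 gave 0.46 and Fes1A 0.37, AT4G21870 gave 0.27, and AT2G29500 and AT5G48570 gave -0.25 and -0.26, all with intervals that include 0. Of the 10 genes 7 had the higher level in sps1, against 51.9% of all probe sets; the median difference was 0.41, and that of all probe sets was 0.02. L17 and sps1 were set against the same 2 wild type arrays, so these comparisons share their wild type values.

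Ordered by mean signal without the third wild type array, sps1 was the highest line for 7 of the 10 genes, wild type for 2 and L17 for 1. L17 was lowest for 5 genes, wild type for 4, and sps1 for AT5G48570. The shares of these orders over all probe sets were not taken. AT5G51440 was the one gene whose 3 lines all differed past the test, in the order L17, sps1, wild type from low to high. For ATHSP22.0 sps1 stood above the other lines, and L17 and wild type differed by -0.15 with an interval of -0.70 to 0.41. For the remaining 8 genes no pair of lines differed past the test.

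The sps1 arrays were not alike for these genes. Replicate 1 was the lowest of the 3 sps1 arrays for 9 of the 10 genes, the exception being AT5G48570, and for 34.2% of all probe sets. AT4G21870 read 273.7 there and 493.7 and 566.7 on the other sps1 arrays, and AT1G53540 read 157.5 there and 308.5 and 325.0 on the others. Without sps1 replicate 1, 4 of the 10 genes passed in L17 against sps1, the additions being AT1G53540 (adjusted p = 0.0207) and AT4G21870 (adjusted p = 0.0318), and 4 passed in sps1 against wild type, with AT1G53540 (adjusted p = 0.0196) and AT5G37670 (adjusted p = 0.0455) added (limma). Over all 22746 probe sets 1847 and 2810 passed in that setting. Replicate 1 was left out here as the array that was lowest for most of the 10 genes, and without sps1 replicate 2 or without sps1 replicate 3 instead, 1 of the 10 genes passed in each of these comparisons. Between the wild type arrays used, replicate 1 was above replicate 2 for 8 of the 10 genes and for 49.6% of all probe sets.

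**Figure D3:**
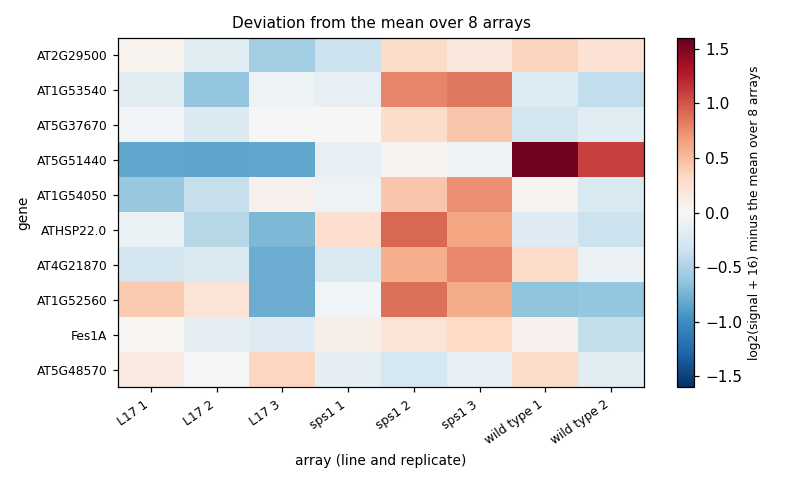
Deviation of log2(signal + 16) from the gene's mean over 8 arrays, in colour, for the 10 genes (rows) on each array except wild type replicate 3 (columns). The sps1 replicates 2 and 3 are above the mean for most genes, replicate 1 is nearer to it, and the row of AT5G51440 is low on all L17 arrays and high on both wild type arrays.

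In L17 against sps1, ATHSP22.0 passed in 12 of 18 alternative settings, with adjusted p between 0.00247 and 0.243. It missed the threshold when L17 replicate 2 or 3 (0.0715 and 0.0609) or sps1 replicate 2 or 3 (0.063 and 0.0651) was left out. AT5G51440 passed in 17 of 18 and missed it when the third wild type array entered the fit (adjusted p = 0.608). Against wild type, AT5G51440 passed in 18 of 18 settings in L17 and in 17 of 18 in sps1, where it missed the threshold with the third wild type array in the fit (adjusted p = 0.0525).

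Many of the other chaperone genes listed had no named probe set, and 8730 probe sets are unnamed here. A listed gene is called measured below when it had a named probe set. Of 18 further small heat shock protein and related genes listed, 6 had a named probe set. AT2G19310, a small heat shock protein gene outside the set, fell in both lines. It read 159.4, 192.2 and 221.9 in L17, 196.8, 246.9 and 220.2 in sps1, and 3103.2 on wild type replicate 3, against 1232.5 and 1269.4 on wild type replicates 1 and 2. The log2 difference was -2.62 ± 0.16 in L17 and -2.42 ± 0.16 in sps1 against those 2 wild type arrays (SE, limma adjusted p = 0.000142 and 0.000172), and -0.20 between L17 and sps1 (adjusted p = 0.454). As for AT5G51440, both lines lay below every wild type array. The other 5, AT5G54660, AT1G76770, AT1G76780, AT2G27140 and AT3G10680, did not pass in any comparison, and on wild type replicate 3 AT5G54660 read 106.5 and AT1G76780 read 5.4.

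Of 27 co-chaperone genes listed beyond Fes1A and AT5G48570, 13 were measured. Against wild type, 2 fell and 11 did not pass in L17, and 2 fell, 1 rose and 10 did not pass in sps1. In L17 against sps1 none of the 13 passed by limma (1 at an unadjusted p under 0.05), with a median difference of -0.05. Hop3, which links HSP70 to HSP90, read 122.1, 127.6 and 194.6 in L17, 141.4, 179.9 and 168.4 in sps1, and 3088.5 on wild type replicate 3, against 401.4 and 333.9 on wild type replicates 1 and 2. Its log2 difference was -1.25 in L17 and -1.10 in sps1 (limma adjusted p = 0.00994 and 0.0127). AT2G20560, of the DnaJ family that delivers substrates to HSP70, read 106.7, 102.5 and 150.5 in L17, 116.1, 157.8 and 125.0 in sps1, and 2033.4 on wild type replicate 3, against 228.5 and 254.2. Its log2 difference was -0.94 in L17 and -0.80 in sps1 (limma adjusted p = 0.0214 and 0.031). Without wild type replicate 1 or 2 the calls of Hop3 were lost (adjusted p = 0.0761 and 0.0508 in L17, 0.0923 and 0.0539 in sps1), and so were those of AT2G20560 (0.0836 and 0.145 in L17, 0.103 and 0.175 in sps1). AT2G20560 also lost its call without L17 replicate 1 or 2 in L17 (0.063 and 0.0649) and without sps1 replicate 1 or 3 in sps1 (0.0802 and 0.0837).

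Fes1C and Fes1B, relatives of Fes1A, were not highest on the third wild type array. Fes1C read 383.3, 437.2 and 413.2 in L17, 496.0, 494.4 and 570.1 in sps1, and 409.3 on wild type replicate 3, against 317.3 and 313.0, and it rose in sps1 by 0.69 ± 0.13 on the log2 scale (SE, limma adjusted p = 0.0101; 0.0613 and 0.0741 without wild type replicate 1 or 2). Fes1B read 92.9, 112.3 and 100.2 in L17, 78.6, 129.3 and 88.6 in sps1, and 123.2 on wild type replicate 3, against 65.0 and 47.4, and did not pass. SGT1A, a co-chaperone of HSP90, read 1228.7 on wild type replicate 3 and at most 768.4 elsewhere, and did not pass between lines.

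**Figure D4:**
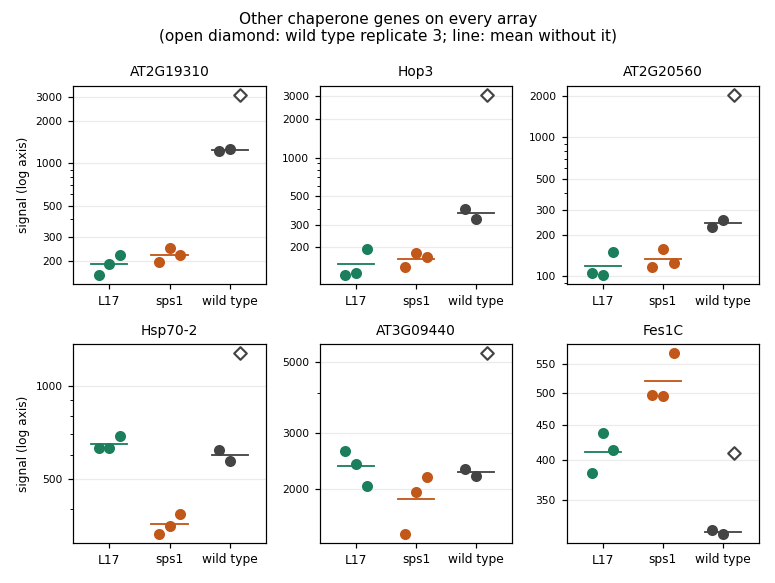
Signal of 6 other chaperone and co-chaperone genes on every array, 1 panel per gene, on a log axis, with L17, sps1 and wild type side by side. Points are single arrays, the open diamond is wild type replicate 3, and the bar is the mean without it. AT2G19310, Hop3 and AT2G20560 are lower on all L17 and sps1 arrays than on all wild type arrays, while Hsp70-2 is lower on all sps1 arrays than on any other array.

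Of 18 HSP70 genes listed, 4 were measured. Hsp70-2 read 630.6, 632.6 and 688.9 in L17, 333.4, 353.8 and 385.5 in sps1, and 1272.7 on wild type replicate 3, against 621.6 and 573.9. It was higher in L17 than in sps1 by 0.84 ± 0.11 on the log2 scale (SE, limma adjusted p = 0.00368) and fell by 0.72 on the log2 scale in sps1 relative to wild type (limma adjusted p = 0.00787, or 0.064 without wild type replicate 1). This is the opposite order of L17 and sps1 to that of 9 of the 10 genes. AT3G09440, also a cytosolic HSP70, read 5316.6 on wild type replicate 3 and 1449.0 to 2627.4 on the other arrays, and did not pass in any comparison. AT1G11660 and AT4G16660 did not pass either, and AT4G16660 read 319.4 on wild type replicate 3 and at most 300.2 elsewhere. The listed genes for HSP100, HSP90, HSP60 and HSP10 and for heat shock factors, the transcription factors that switch on heat shock genes, had no named probe set and were not analysed here.

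Genes of other stress responses were read beside them. Of 9 other heat-induced genes 2 were measured and neither passed between lines. HSA32, which prolongs acquired heat tolerance, read 765.6 on wild type replicate 3 and at most 501.6 elsewhere, and AT1G72660 read 106.0 there and 106.6 on L17 replicate 3. Of 9 oxidative stress genes listed 3 were measured. All 3 were over 2-fold higher on the third wild type array than on any other, where 4.97% of all probe sets were at least 2-fold higher. STZ, a zinc finger repressor induced by many stresses, read 222.3, 309.0 and 288.3 in L17, 107.6, 160.2 and 189.0 in sps1, and 1866.5 there, against 436.1 and 417.5. It fell by 1.43 on the log2 scale in sps1 (limma adjusted p = 0.00629). GSTU25, a glutathione S-transferase, read 152.4, 230.6 and 102.0 in L17, 31.5, 11.6 and 56.6 in sps1, and 1714.0 there, against 261.9 and 256.8. It fell by 2.59 on the log2 scale in sps1 (limma adjusted p = 0.00631), and AT1G13340, at 519.8 on the third wild type array and at most 194.4 elsewhere, did not pass. Both STZ and GSTU25 were higher in L17 than in sps1, with log2 differences of 0.80 and 1.89 (limma adjusted p = 0.0478 and 0.0185). STZ missed the threshold when any 1 array other than sps1 replicate 3 was left out (0.0512 to 0.446 over all settings that lost it), and GSTU25 without L17 replicate 1 or 2 (0.0538 and 0.0619) or sps1 replicate 1 (0.0522).

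Of 16 genes listed as induced by low oxygen 5 were measured, and 1 of them, AT5G10040, was highest on wild type replicate 3, at 41.0 against at most 32.4 elsewhere. AT4G10270 rose in both lines, at 158.6, 128.2 and 151.7 in L17 and 145.0, 158.4 and 160.8 in sps1, against 63.0 and 95.1 on wild type replicates 1 and 2, with log2 differences of 0.79 and 0.86 (limma adjusted p = 0.0274 and 0.0149). Those calls were lost without wild type replicate 1 (0.153 and 0.0945) and, in L17, without L17 replicate 1 or 3 (0.0756 and 0.0677). AT1G33055 was higher in L17 than in sps1 by 0.48 on the log2 scale (limma adjusted p = 0.044), a call lost when any 1 array was left out (0.0605 to 0.123). On wild type replicate 3 AT3G10040, AT3G27220 and AT1G33055 read lowest, at 40.0, 70.4 and 1136.9. Their other arrays read 44.5 to 100.7, 113.2 to 194.8 and 1747.2 to 2814.8. AT4G10270 read 65.5 on wild type replicate 3. Of the 8 endoplasmic reticulum folding genes listed, CRT1b, a calreticulin, and DER2.1 were measured and did not pass. On wild type replicate 3 CRT1b read 696.6, against 821.8 to 1502.2 elsewhere. DER2.1 read 3764.8 there, against 2608.0 to 4170.2 elsewhere. No wounding or jasmonate gene of the list had a named probe set.

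The genes most like the mean of the set were sought among probe sets naming exactly 1 other gene whose signal spanned at least 2-fold over the arrays, by Pearson's r on the log2 scale. Over all 9 arrays the closest were AT1G25400 (r = 0.994), AT4G24160 (0.993), AT1G49920 (0.99), AT2G35080 (0.986) and AT1G52020 (0.984), of 7464 compared. One array sets these values: AT1G25400 read 3818 on wild type replicate 3 and 714 to 1008 on the others, and AT4G24160 read 2565 there and 557 to 774 on the others. The remaining 3 had signals under 8 on all other arrays. Over the 8 arrays without it the closest of 6053 were AT5G02710 (r = 0.959), AT1G75490 (0.937), AT5G14450 (0.934), SWEET1, a sugar transporter (0.933), and AT3G57980 (0.926). All 5 had their lowest mean in L17 and their highest in sps1, and AT1G75490 averaged 189 in L17 and 388 in sps1. They were picked for following the mean of the set over these arrays, so that order is no separate result. On wild type replicate 3 SWEET1 read 192, against a mean of 193 on wild type replicates 1 and 2.

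The 10 genes do not lie side by side in the genome. By the RefSeq gene table, chromosome 1 holds 3 of them, chromosomes 2 and 3 hold 1 each, chromosome 4 holds 2 and chromosome 5 holds 3. The closest, AT1G53540 and AT1G54050, have 62 protein-coding genes between them.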

How the data were processed

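The authors deposited a linear-scale intensity for each probe set on each of 9 one-colour Affymetrix arrays. The submitters' processing notes name GCOS; no source used here names its summary algorithm, scaling target or detection calls. The deposited intensity averaged 500.0 on every array after trimming 2% at each end and was not normalized further. The analysis used log2(signal + 16), so changes of dim genes are understated; on each array 16.5% to 21.3% of probe sets read below 16. Without 64 control probe sets, limma 3.58.1 in R 4.3.3 was fitted to 8 arrays, with 3 lines and no block. Wild type replicate 3 was left out, since the members had been chosen on it. Benjamini-Hochberg adjustment ran over 22746 probe sets at a threshold of 0.05, and the code was tested on simulated data. The number of arrays limits the precision.

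Sample titles gave the lines and the replicate numbers. Deviations of same-numbered L17 and sps1 arrays from their line means correlated at -0.05, 0.01 and -0.06, so the numbers were not treated as pairs. The wild type arrays were not checked in this way, and the labels do not tell whether equal numbers share a planting. Gene names came from the platform annotation and the RefSeq gene table of TAIR10.1, used for names and gene order only; 13513 probe sets name 1 gene, 503 several, and 8730 are unnamed here. All 10 members matched. The members, gene lists and comparisons were chosen with earlier results of these data known. Every member is named; of each other list are named up to 4 genes with the smallest adjusted p among those that passed in any comparison, and up to 3 with the largest ratio of wild type replicate 3 to the highest other array, and 5 genes each by likeness over 9 and 8 arrays. Genes named beyond this rule were chosen after their values were seen. The alternatives tried are given with their effect among the additional observations.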

Additional observations from a re-analysis of the deposited data

Results flagged for a closer look

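In 2 of the 10 genes, against 11.5% of all probe sets, the change from wild type differed between L17 and sps1. The wild type cancels in that difference, so it is the L17 against sps1 comparison again and no further evidence. It was -0.79 on the log2 scale for AT5G51440, which lost the call in 1 of 18 alternative settings, and -1.02 for ATHSP22.0, which lost it in 6 of 18.

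Wild type replicate 3 was left out of the comparisons between lines except as an alternative setting, and on it all 10 genes read above both other wild type arrays. The signals were 9140 for AT2G29500, 8199 for AT1G53540, 7682 for Fes1A, 3773 for AT5G51440, 3114 for AT5G48570, 1772 for AT1G52560, 1592 for AT1G54050, 1112 for AT5G37670, 467 for AT4G21870 and 404 for ATHSP22.0. The set was listed for its signals on this array, so these values are a description.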

How the results depend on the processing

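Of the 10 genes, 2, 1 and 2 passed in L17 against sps1, L17 against wild type and sps1 against wild type, of 2626, 2596 and 3406 probe sets. In L17 against wild type the count was 1 in every alternative run. At an adjusted p under 0.01, 0 genes passed in L17 against sps1 by limma (5 at an unadjusted p under 0.05) and 1 in sps1 against wild type, with 921, 1007 and 1529 probe sets. Counts at an unadjusted p are given here without the share of all probe sets, so they cannot be set against it. With a mean signal of at least 100, which drops AT1G52560, 5 of 9 genes passed in L17 against sps1 and 4 of 9 in sps1 against wild type. Of the 12823 probe sets kept in that setting, 3381 and 3962 passed. With trended and robust moderation 4 genes passed in L17 against sps1, with 3742 probe sets. In sps1 against wild type 1 gene passed with log2(signal + 1) and 1 with only the 2 lines compared, with 2738 and 2841 probe sets. The replicate number as a block left 1 gene in each comparison with sps1 and 1591, 1289 and 2124 probe sets. Whether equal numbers pair the arrays is not told by the labels, and the wild type arrays were not checked for it. Leaving out 1 array gave 1 to 4 genes in each comparison with sps1, and 1444 to 2074, 868 to 2428 and 1430 to 3526 probe sets. With wild type replicate 3 in the limma fit, 0 genes passed in either comparison with sps1. At an unadjusted p under 0.05, 2 passed in L17 against sps1 and 1 in sps1 against wild type (limma). At an adjusted p under 0.05, 3325 probe sets passed in sps1 against wild type and 1560 in L17 against sps1 (limma). The log2 differences of L17 against sps1 were the same with and without that array, -0.79 for AT5G51440 and -1.02 for ATHSP22.0. The 3 lines share 1 estimate of the spread, and the array enters L17 against sps1 only through it. In sps1 against wild type the array also enters the wild type mean, and the cause was not tested. Outside the set wild type replicate 3 ended the calls of Hop3 (limma adjusted p = 0.0775 in L17 and 0.0826 in sps1) and of AT2G20560 (0.118 and 0.127). In L17 against sps1 it ended those of Hsp70-2 (0.112), GSTU25 (0.161), AT1G33055 (0.242) and STZ (0.446). Its inclusion reversed differences that had not passed: in L17 against wild type AT1G53540 (-1.90), AT5G37670 (-0.68), AT1G52560 (-1.54), Fes1A (-1.65) and AT5G48570 (-1.43), in sps1 against wild type AT1G53540 (-1.11), AT5G37670 (-0.35), AT1G54050 (-0.83), AT1G52560 (-1.01) and Fes1A (-1.33), and, outside the set, Hsp70-2 in L17 (-0.24) and AT1G33055 in sps1 (0.21; 0.0713 with median centring). The L17 minus wild type difference of AT1G53540 was -0.0787 with array weights and -0.13 with the block. Leaving out 1 array also turned differences that had not passed: in L17 against wild type the ranges were -0.0943 to 0.18 for AT1G53540, -0.30 to 0.00362 for ATHSP22.0, -0.18 to 0.28 for Fes1A and -0.16 to 0.32 for AT5G48570, in sps1 against wild type -0.14 to 0.0761 for AT1G33055, and in L17 against sps1 -0.13 to 0.00426 for AT4G10270 and -0.00636 to 0.19 for PORB. None of the 10 genes or of the genes named from the other lists changed its sign in a comparison that it had passed; the genes named by likeness were not run under the alternatives. The alternatives for the genes outside the set were chosen after seeing the data.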
